A study of Rattus norvegicus with 6 samples.

Results

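The genes described here are 110 transcripts of the autophagy pathway and its mTORC1 regulators, out of 13526 genes in the deposited table, measured by RNA sequencing in primary rat vascular smooth muscle cells (VSMCs). They are the genes that the authors' table lists under the KEGG pathway ko04140, autophagy, with Tsc1, Tsc2, Mtor, Rptor and Rheb named in addition, all of which the table lists there too. Of 130 such genes 20 were left out, because they are also listed under lysosome, protein processing in the endoplasmic reticulum or cell cycle, or belong to the AMPK, hypoxia and related genes left out by symbol, Sqstm1 and Igf1r among them. All 110 reached a mean of 1 TPM and were tested. The table gives a gene symbol for 104 of them, and the others are clone names or unnamed loci.

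Both groups held wild-type cells from rat thoracic aorta in osteogenic media (OM), which contains 10 mM β-GP, a phosphate donor, and 3.5 mM CaCl2. The OM plus EMPA group (n = 3) also received 1 μM empagliflozin, a drug that inhibits the sodium-glucose cotransporter SGLT2, and the OM group (n = 3) did not. In the sample titles the medium is called Pi, a name that the study also gives to a high-phosphate medium, while the treatment protocol in the labels names OM alone, and OM was followed here. The labels give 5 days of treatment, and the legend of the published figure gives a shorter time. No source says that the libraries of a group stem from different cultures or animals, and p-values therefore cover the spread among these libraries alone, which may be technical. The comparison asks whether empagliflozin altered transcripts of the autophagy machinery and of its mTORC1 control in calcifying VSMCs.

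Autophagy delivers cytoplasm to the lysosome. The ULK1 kinase complex starts the process, a lipid kinase complex built on Beclin 1 and VPS34 marks the membrane, and proteins of the ATG8 family (LC3 and GABARAP proteins) are conjugated to the growing membrane by enzymes that resemble those of ubiquitin transfer. The kinase complex mTORC1 holds ULK1 back when nutrients and growth factors are present. The TSC1 and TSC2 proteins in turn switch off RHEB, the GTPase that activates mTORC1, and AKT relieves that brake. In smooth muscle cells autophagy is known for its part in phenotype and calcification. Much of this control acts on proteins, by phosphorylation and lipid conjugation, which transcript levels do not measure.

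Promoter sequences of 4 members are shown because the master regulators of autophagy transcription, TFEB and TFE3, bind a DNA element with the core CACGTG. Gabarap and Tsc2 were among the members called below by limma, in calls close to the threshold, while Atg3 and Rheb carry the core. Each run is the 250 bases before the annotated RefSeq start, read 5′ to 3′ on the strand of the gene, build GRCr8. Capitals mark GGGCGG, the core of a GC box, in Gabarap and Tsc2, and CACGTG in Atg3 and Rheb, on either strand. The runs of Atg3 and Rheb hold GGGCGG as well, where it is not marked, so this motif does not separate the 2 pairs.
Gabarap, chr10:55213215-55213464, plus strand: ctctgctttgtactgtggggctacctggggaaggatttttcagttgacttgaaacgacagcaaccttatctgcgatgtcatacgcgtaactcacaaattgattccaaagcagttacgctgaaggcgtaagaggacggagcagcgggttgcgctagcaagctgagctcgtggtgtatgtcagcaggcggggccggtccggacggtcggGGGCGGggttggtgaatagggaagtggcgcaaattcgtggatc
Tsc2, chr10:14160240-14160489, minus strand: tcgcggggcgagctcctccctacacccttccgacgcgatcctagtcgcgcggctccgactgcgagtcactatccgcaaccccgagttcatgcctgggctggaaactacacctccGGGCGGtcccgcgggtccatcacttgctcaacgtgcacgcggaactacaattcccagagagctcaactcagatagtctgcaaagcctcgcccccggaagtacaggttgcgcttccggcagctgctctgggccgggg
Atg3, chr11:69159281-69159530, minus strand: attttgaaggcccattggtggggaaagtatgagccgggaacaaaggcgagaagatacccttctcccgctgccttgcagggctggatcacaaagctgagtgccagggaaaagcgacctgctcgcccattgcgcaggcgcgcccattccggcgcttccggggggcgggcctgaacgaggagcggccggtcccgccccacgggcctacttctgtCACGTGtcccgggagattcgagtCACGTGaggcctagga
Rheb, chr4:11013133-11013382, plus strand: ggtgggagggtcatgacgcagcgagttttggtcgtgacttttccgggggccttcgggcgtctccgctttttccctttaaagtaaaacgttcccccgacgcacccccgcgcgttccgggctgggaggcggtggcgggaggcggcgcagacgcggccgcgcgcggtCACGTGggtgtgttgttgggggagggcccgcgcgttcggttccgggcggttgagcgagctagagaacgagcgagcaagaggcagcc

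RefSeq promoters were matched by symbol for 84 members. CACGTG, searched on both strands, was found in 7 of the 84 (8.33%) and in 5.79% of all 27457 promoters of this length. GTCACGTG, the longer form that contains it, was found in 5 members (5.95%, against 1.78% of all promoters), and GGGCGG in 48 (57.1%, against 32.4%). These are unlike sets, because the members are all expressed in these cells and the 27457 promoters were not limited to expressed genes. The 7 members with CACGTG were Tbk1, Snap29, Akt1s1, Atg5, Nras, Atg3 and Rheb. None of the 7 was among the members called below by limma, with log2 fold changes from -0.18 for Tbk1 to 0.03 for Rheb and 1 of them, Tbk1, at an unadjusted p under 0.05. As 5.45% of all members and 6.92% of all tested genes were called, no call among 7 genes is close to that background. The promoters of Gabarap and Tsc2 hold no CACGTG in these 250 bases.

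The deposited values are the authors' TPM, abundances per transcript length that sum to 997954 to 998293 in each library, so the depth behind a value is unknown and levels may be compared between genes. All 6 smooth muscle markers were listed, with Myocd at 0.240 to 0.720 TPM, and their summed level ranged over 2466 to 2911 TPM with empagliflozin and over 1751 to 2149 TPM without. Most of that sum was Tagln, at 2052 against 1528 TPM. Tagln, Acta2 and Cnn1 were called higher by limma, at log2 fold changes of 0.43, 0.70 and 0.77. Myh11 was lower in mean, at 15.8 against 17.9 TPM, and neither Myh11 nor Smtn was called. Of 5 leukocyte markers only Cd68 was listed, at 5.10 to 9.52 against 12.8 to 14.9 TPM, and 0 of 4 endothelial markers were listed. Mitochondrially encoded transcripts took 10.35 ± 0.33% of TPM (SD, n = 3) with empagliflozin against 8.41 ± 0.90% (SD, n = 3) without, and a larger share lowers the TPM of other genes. OM plus EMPA replicate 1 lay apart on the second principal component, at 17.63 against -9.35 to 5.59 for the others.

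Most autophagy transcripts were detected at moderate levels and differed little between the groups. The comparison used limma on the log2(TPM + 1) scale, which understates changes at low TPM, over the 12564 genes whose mean reached 1 TPM, and genes with a Benjamini-Hochberg adjusted p of at most 0.05 were called. Of the 110 members 1 rose (Gabarap), 5 fell (among them Cflar, Tsc2, Prkcd and Map2k1) and 104 did not pass the test. This is 5.45% of the members, and 6.92% of all tested genes were called. All genes were called higher in 2.06% (259) and lower in 4.86% (611). When libraries were instead brought to a common median gene ratio (median-ratio scaling), the split over all genes was 390 higher and 384 lower, 3.1% and 3.06%, and among the members Gabarap was higher and Cflar lower. In a bulk culture a lower level may come from fewer cells that express a gene or from less RNA per cell, which cannot be told apart.

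The median log2 fold change of the members was -0.06, and that of all tested genes was -0.05. The log2 fold change was below 0 for 76 members (69.1%), and for 65.1% of all tested genes. Under median-ratio scaling both medians were close to 0, at 0.00011 for the members and -0.00074 for all genes. The libraries of the groups did not overlap for 31 members that were lower with empagliflozin (28.2%, background 22.5%) and for 5 that were higher (4.55%, background 7.85%). At an unadjusted p under 0.05 there were 24 members (21.8%, background 24.1%), 21 of them lower.

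Each 95% interval reflects the spread among these libraries alone and does not bound a change across cultures or animals. It also leaves out the choice of scaling. The 95% interval of the log2 fold change lay within 1.5-fold in either direction for 106 of the 110 members (96.4%) and within 1.2-fold for 64 (58.2%). Among all tested genes these shares were 86.2% and 37.9%, and among the 5005 tested genes between the quartiles of the members' mean TPM they were 93.9% and 52.5%. The 4 members whose interval reached beyond 1.5-fold were Rab7b, Irs3, the Gabarapl2-like locus AABR07071000.1 and an unnamed Hmgb1 pseudogene, with means of 2.13 to 4.67 TPM. The median SD between replicates on the log2 scale was 0.07 for the members and 0.10 for all tested genes.

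**Figure D1:**
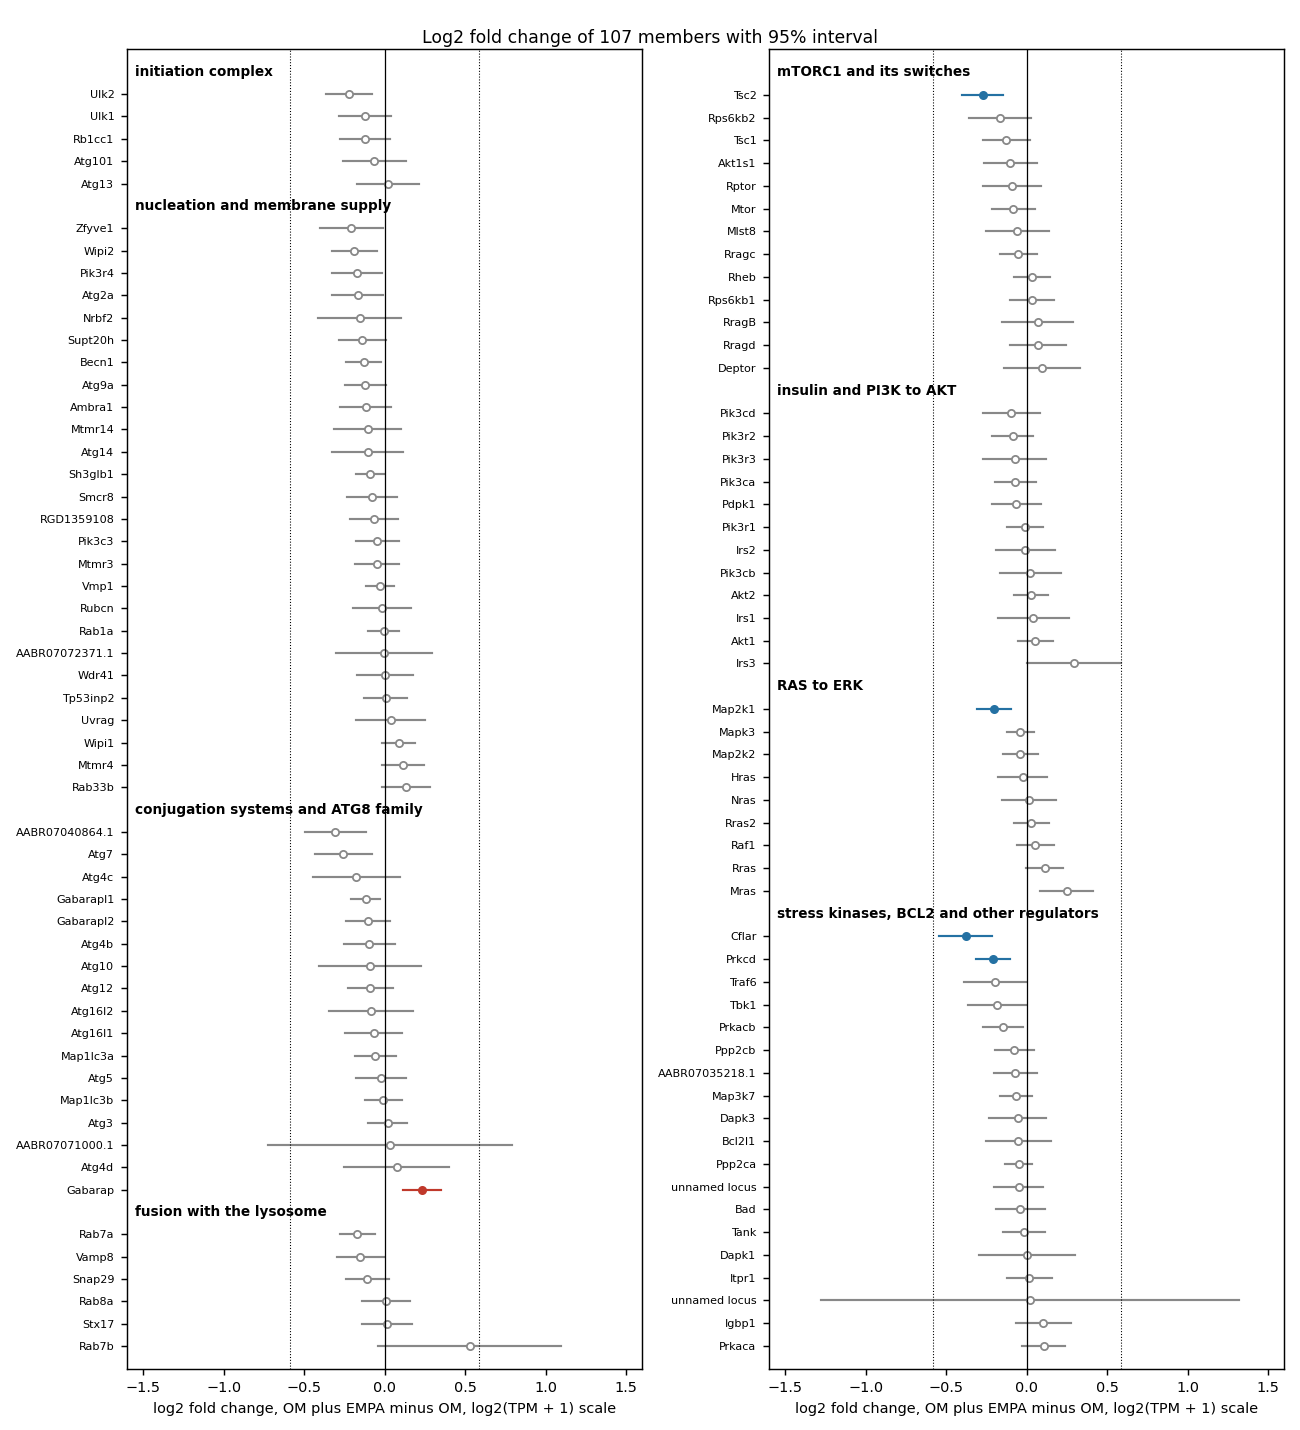
Log2 fold change (OM plus EMPA minus OM, log2(TPM + 1) scale) of 107 of the 110 members with its 95% interval, grouped by role. Filled points passed an adjusted p of 0.05 from limma, with 1 higher (red) and 4 lower (blue) among those drawn, and dotted lines mark 1.5-fold.

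Levels spanned from 1.47 TPM for Dapk1 to 472 TPM for Rab1a, with a median of 30.9 TPM against 18.5 TPM over all tested genes. Means above 100 TPM were found for 20 members and under 10 TPM for 16. The 5 highest were Rab1a, a GTPase of early secretory membrane traffic, Vmp1, an endoplasmic reticulum protein needed for membrane growth, Rab7a, the late endosomal GTPase, the RAS-related GTPase Rras, and Gabarapl2. Rab1a was at 472 ± 4.94 with empagliflozin and 473 ± 16.8 TPM in OM alone, and Vmp1 at 387 ± 6.88 and 395 ± 7.60 TPM (SD, n = 3 each), and the libraries of the groups overlapped for both. Together the members made up 0.649 ± 0.007% of TPM with empagliflozin and 0.669 ± 0.009% in the OM group.

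Of the 5 members of the initiation complex, limma called 0 (background 6.92%), and 1 (Ulk2) had an unadjusted p under 0.05 (background 24.1%). In a list of 5, 1 such gene is close to that background. Ulk2, a kinase that starts autophagy beside Ulk1, was at 29.1, 25.9 and 27.9 TPM in the OM plus EMPA libraries and 31.8, 31.2 and 34.2 TPM in the OM libraries. The Ulk2 groups did not overlap, and the log2 fold change was -0.22 (SE 0.06, adjusted p = 0.0801 from limma). Ulk1, the better studied kinase, was lower in level, at 11.1 ± 0.24 against 12.2 ± 0.67 TPM (log2 fold change -0.12, adjusted p = 0.325 from limma). Ulk2 supplied 71.3 ± 0.79% of the summed TPM of both kinases with empagliflozin and 72.6 ± 1.998% without, shares that overlapped. The scaffold Rb1cc1 and the subunits Atg13 and Atg101 had log2 fold changes of -0.12, 0.02 and -0.06.

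Of the 26 members listed under nucleation and membrane supply, a list that also takes in regulators of these steps, limma called 0 (background 6.92%). Among them 6 had an unadjusted p under 0.05 (23.1%, background 24.1%). Becn1, which encodes Beclin 1, was at 89.9, 86.1 and 87.8 TPM with empagliflozin and 99.3, 99.0 and 91.0 TPM in OM alone. The Becn1 groups did not overlap, and the log2 fold change was -0.13 (SE 0.05, adjusted p = 0.153 from limma). Pik3c3, which encodes the lipid kinase VPS34, was at 14.3 ± 0.16 against 14.8 ± 0.31 TPM, a log2 fold change of -0.05 with a 95% interval of -0.18 to 0.09. Its partner Pik3r4 had a log2 fold change of -0.17, and Atg14, which steers the complex to autophagy, one of -0.10. The 26 log2 fold changes ran from -0.21 for Zfyve1, which marks the membrane site where autophagosomes form, to 0.13 for Rab33b, a GTPase that binds the ATG16L1 complex.

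Gabarap was the member that rose, in the list of 17 conjugation enzymes and ATG8 proteins (5.88% called, against 6.92% of all tested genes). Its level was 196, 204 and 210 TPM with empagliflozin and 177, 179 and 163 TPM in OM alone. Every OM plus EMPA library lay above every OM library, at a mean of 203 ± 7.14 against 173 ± 8.87 TPM (SD, n = 3 each). The log2 fold change was 0.23 (SE 0.05, written as ± beside later limma fold changes, 95% interval 0.12 to 0.35, adjusted p = 0.0362 from limma), and 0.29 (adjusted p = 0.0178 from limma) under median-ratio scaling. Without a variance trend in the fit it was not called (adjusted p = 0.0915 from limma). Gabarap lies on chromosome 10 from 54714198 to 54717765 on the plus strand in the authors' table, for which no source used here names the build.

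None of the other ATG8 transcripts passed the test. Gabarapl1, a close paralog, was at 159, 154 and 156 TPM with empagliflozin and 172, 166 and 172 TPM without, lower in 3 of 3 libraries than any OM library, and did not pass the test (limma log2 fold change -0.12 ± 0.04, adjusted p = 0.107). Its log2 fold change was -0.06 under median-ratio scaling. Gabarapl2 was at 185 ± 5.96 against 199 ± 14.6 TPM and Map1lc3a, which encodes LC3A, at 173 ± 12.03 against 180 ± 2.83 TPM, with overlapping groups. Map1lc3b, which encodes the LC3B protein used as a marker of autophagosomes, was at 137, 132 and 139 TPM with empagliflozin and 139, 129 and 144 TPM without. Its log2 fold change was -0.01 with a 95% interval of -0.12 to 0.11, and 0.05 under median-ratio scaling.

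A share within a family does not depend on how the libraries are scaled. Gabarap made up 23.2%, 24.0% and 24.1% of the summed TPM of the 5 ATG8 transcripts with empagliflozin and 20.1%, 21.2% and 19.0% in the OM group. Gabarapl1 made up 18.9%, 18.1% and 18.0% against 19.5%, 19.7% and 20.1%. Neither share overlapped between the groups, and each gave p = 0.1 in a two-sided exact permutation test, the smallest that 3 against 3 allows. Over the 65 family values compared in this way the smallest adjusted p was 0.241 (exact permutation tests, Benjamini-Hochberg). The summed level of the family was 842 to 869 TPM with empagliflozin and 842 to 879 TPM in OM alone, which overlapped. These shares were examined after the values were seen, the Gabarap family holds close paralogs, and the sources do not say how reads that fit several copies were assigned.

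**Figure D2:**
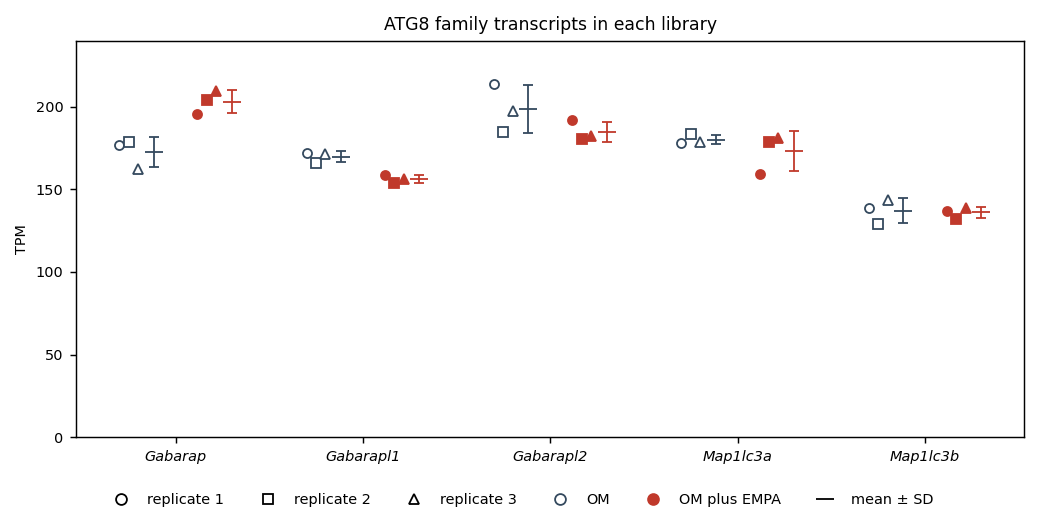
TPM of the 5 ATG8 family transcripts in each library, OM in dark open symbols and OM plus EMPA in red, with symbol shape for the replicate number and the mean ± SD (n = 3) beside each group. Gabarap is higher in every OM plus EMPA library (196 to 210 TPM) than in any OM library (163 to 179 TPM), and Map1lc3b overlaps.

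Among the conjugation enzymes, limma called 0 and 2 had an unadjusted p under 0.05. Over the whole list of 17, with the ATG8 transcripts, 4 had one (23.5%, background 24.1%). Atg7, the activating enzyme of both conjugation systems, was at 8.96, 9.84 and 9.54 TPM with empagliflozin and 10.9, 11.3 and 12.3 TPM without, groups that did not overlap (limma log2 fold change -0.26 ± 0.08, adjusted p = 0.0914). AABR07040864.1, which the table names autophagy related 4A, a protease that trims ATG8 proteins, was at 23.3 ± 1.27 against 29.1 ± 2.88 TPM (limma log2 fold change -0.31 ± 0.08, adjusted p = 0.0671). Atg5 was at 30.7 ± 1.68 against 31.2 ± 2.20 TPM, a log2 fold change of -0.02 with a 95% interval of -0.18 to 0.14, and 0.03 under median-ratio scaling. Atg3, the enzyme that passes ATG8 proteins to lipid, had a log2 fold change of 0.02.

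Of the 6 members that serve fusion with the lysosome limma called 0 (background 6.92%), and 2 had an unadjusted p under 0.05 (33.3%, background 24.1%). Rab7a, the GTPase that tethers autophagosomes to lysosomes, was at 351, 328 and 344 TPM with empagliflozin and 398, 382 and 370 TPM in OM alone. The Rab7a groups did not overlap (limma log2 fold change -0.17 ± 0.05, adjusted p = 0.0723). The fusion proteins Vamp8, Snap29 and Stx17 had log2 fold changes of -0.15, -0.11 and 0.02. Rab7b had the largest log2 fold change of any member, 0.53, from low and variable levels of 3.34 to 7.40 against 2.64 to 4.07 TPM (SE 0.25, adjusted p = 0.238 from limma).

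Tsc2 fell among the 13 transcripts of mTORC1, its switches and the S6 kinases, and the other 12 did not pass the test. This is 7.69% of the list, close to the 6.92% called among all tested genes. Tsc2, which encodes the GTPase-activating subunit that switches RHEB off, was at 16.8, 16.9 and 17.4 TPM with empagliflozin and 20.6, 21.4 and 20.4 TPM in OM alone. Every OM plus EMPA library lay below every OM library. The log2 fold change was -0.27 (SE 0.05, 95% interval -0.40 to -0.15, adjusted p = 0.0284 from limma), and -0.22 (adjusted p = 0.0569 from limma) under median-ratio scaling. In the authors' table Tsc2 lies on chromosome 10 from 13620186 to 13655951 on the minus strand.

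The partner subunit Tsc1 was at 14.0, 13.1 and 13.3 TPM with empagliflozin and 14.7, 15.3 and 14.4 TPM without (limma log2 fold change -0.13 ± 0.06, adjusted p = 0.263). The ratio of Tsc2 to Tsc1 within a library was 1.203, 1.29 and 1.31 with empagliflozin and 1.40, 1.40 and 1.42 in the OM group. The ratios did not overlap (two-sided exact permutation test p = 0.1, the smallest possible, and adjusted p = 0.241 over the 65 family values). Rheb, the target of the TSC proteins, was at 121 ± 3.82 against 118 ± 5.21 TPM, a log2 fold change of 0.03 with a 95% interval of -0.08 to 0.14. Rheb transcripts were 7.10 ± 0.30 times those of Tsc2 with empagliflozin and 5.69 ± 0.32 times in the OM group. Both ratios contain Tsc2, whose own groups did not overlap, so they add no separate evidence for its decrease.

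The kinase Mtor was at 15.3, 15.04 and 16.0 TPM with empagliflozin and 16.3, 16.7 and 16.1 TPM in OM alone. The Mtor groups lay 0.16 TPM apart at their closest, and the log2 fold change was -0.08 with a 95% interval of -0.22 to 0.05. Rptor, the mTORC1 scaffold, was at 8.30 ± 0.47 against 8.90 ± 0.38 TPM (log2 fold change -0.09, 95% interval -0.27 to 0.09). Mlst8, a subunit of both mTOR complexes, had a log2 fold change of -0.06, and the inhibitors Akt1s1 and Deptor had -0.10 and 0.10. The order of levels was Rheb, Rragc and Akt1s1 near 100 TPM, then Rps6kb1 at 24.8 TPM and the others below 20 TPM. Rheb and Rragc did not differ beyond their spread in the OM group, at 118 ± 5.21 and 114 ± 5.95 TPM.

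**Figure D3:**
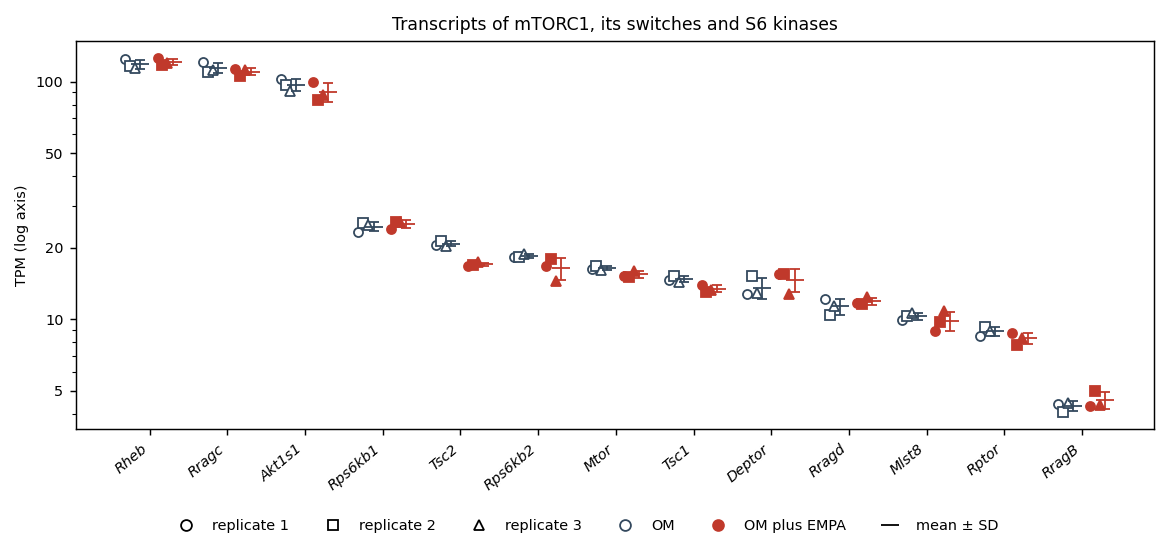
TPM on a log axis of the 13 transcripts of mTORC1, its switches and S6 kinases in each library, ordered by mean level, OM in dark open symbols and OM plus EMPA in red, with the mean ± SD (n = 3). Tsc2 stands apart between the groups, at 16.8 to 17.4 TPM with empagliflozin and 20.4 to 21.4 TPM in OM.

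The insulin and PI3K branch feeds mTORC1 through AKT kinases. Of its 14 members limma called 1 lower, not named here (7.14%, background 6.92%), and 3 had an unadjusted p under 0.05 (21.4%, background 24.1%). Akt1 was at 178 ± 5.33 with empagliflozin against 172 ± 7.53 TPM, and Akt2 at 70.7 ± 2.69 against 69.3 ± 1.40 TPM (SD, n = 3 each), and the groups overlapped for both. The catalytic PI3K gene with the highest level was Pik3cd, which made up 53.3 ± 1.86% of the summed TPM of Pik3ca, Pik3cb and Pik3cd with empagliflozin and 54.1 ± 1.29% without, shares that overlapped. Pik3r1, the main regulatory subunit, was at 87.8 ± 1.39 against 88.5 ± 4.45 TPM, a log2 fold change of -0.01 with a 95% interval of -0.12 to 0.10.

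Map2k1 fell among the 10 transcripts of the RAS to ERK branch, 10.0% against 6.92% of all tested genes. Map2k1, which encodes the ERK kinase MEK1, was at 133, 135 and 142 TPM with empagliflozin and 164, 151 and 158 TPM in OM alone, without overlap (limma log2 fold change -0.21 ± 0.05, adjusted p = 0.0391). The paralog Map2k2 was at 95.5 ± 2.25 against 98.2 ± 4.65 TPM, and the ratio of Map2k1 to Map2k2 overlapped, at 1.36 to 1.51 against 1.48 to 1.70. The ERK gene Mapk3 had a log2 fold change of -0.04. Mras, a RAS-related GTPase, was higher in each OM plus EMPA library, at 52.2 to 60.8 against 44.0 to 49.7 TPM, and did not pass the test (limma log2 fold change 0.25 ± 0.07, adjusted p = 0.0819).

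Cflar and Prkcd fell among the 19 stress kinases, BCL2 proteins and other regulators, 10.5% against 6.92% of all tested genes. In role lists this small, 1 or 2 calls are close to that background. Cflar encodes c-FLIP, an inhibitor of caspase-8 that also restrains LC3 conjugation, and was at 38.5, 35.9 and 40.5 TPM with empagliflozin and 52.4, 45.7 and 52.6 TPM in OM alone. The groups did not overlap, and Cflar had the largest decrease of the called members (limma log2 fold change -0.38 ± 0.07, adjusted p = 0.0231). Prkcd, the kinase PKC delta, was at 44.4, 47.8 and 45.8 TPM against 54.0, 52.9 and 53.4 TPM (limma log2 fold change -0.21 ± 0.05, adjusted p = 0.0356). The remaining 17 ran from -0.20 for Traf6, a ubiquitin ligase of innate immune signalling, to 0.10 for Prkaca, a catalytic subunit of protein kinase A. Dapk1, at 1.47 ± 0.23 against 1.46 ± 0.06 TPM, and Irs1 of the insulin branch, at 4.07 ± 0.21 against 3.94 ± 0.25 TPM, were among the lowest members.

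**Figure D4:**
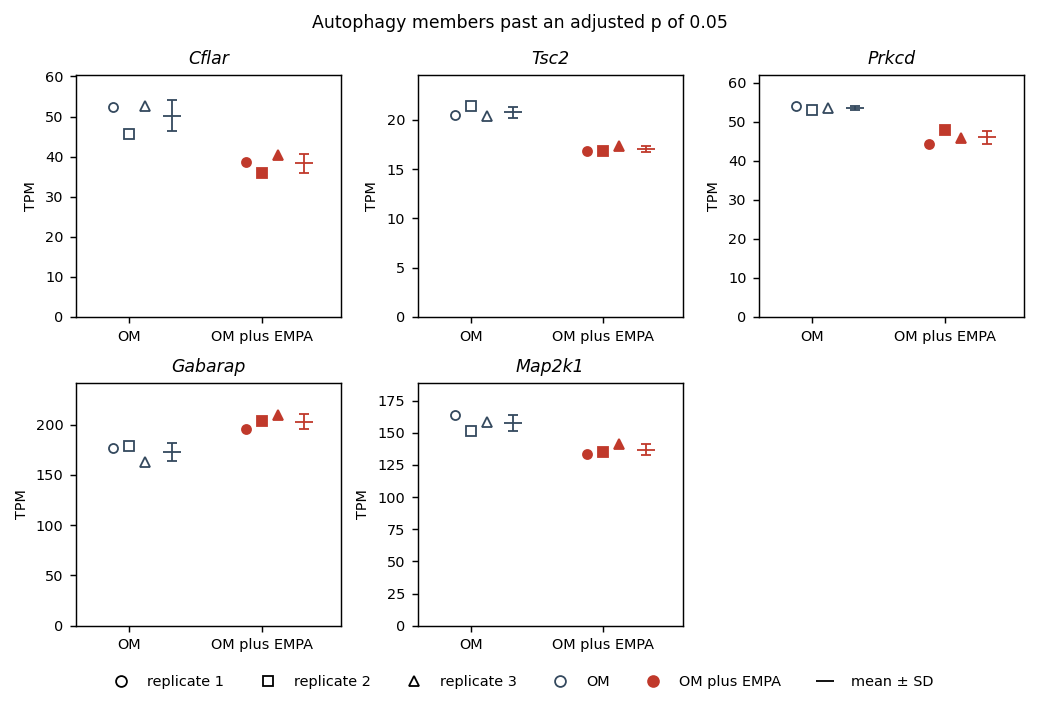
TPM of 5 called members in each library, OM in dark open symbols and OM plus EMPA in red, with symbol shape for the replicate number and the mean ± SD (n = 3) beside each group. Gabarap is higher and the other 4 are lower in every OM plus EMPA library, and axes start at 0.

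These calls were close to the threshold. When each library was left out in turn, between 0 and 3 members were called, and none of Tsc2, Prkcd and Gabarap was called in any of these 6 fits, with adjusted p from limma of 0.0665 to 0.0891 for Tsc2 and 0.0517 to 0.107 for Gabarap. Cflar was called when OM plus EMPA replicate 3 was left out, and when OM replicate 2 was, with adjusted p from limma of 0.0166 to 0.0797 over the 6 fits. Map2k1 was called without OM replicate 2 and in no other of these fits. The direction of Cflar, Tsc2, Prkcd, Gabarap and Map2k1 was the same in each fit, with log2 fold changes from -0.45 to -0.34 for Cflar, -0.29 to -0.25 for Tsc2 and 0.19 to 0.26 for Gabarap. Over all genes 80 to 216 were then higher and 245 to 438 lower. Under median-ratio scaling the calls of Prkcd (-0.16, adjusted p = 0.118 from limma) and Map2k1 (-0.15, adjusted p = 0.113 from limma) were lost. That of Tsc2 was lost there too (adjusted p = 0.0569 from limma). Without the variance trend only Tsc2 stayed called (adjusted p = 0.0376 from limma), and Gabarap was at 0.0915.

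**Figure D5:**
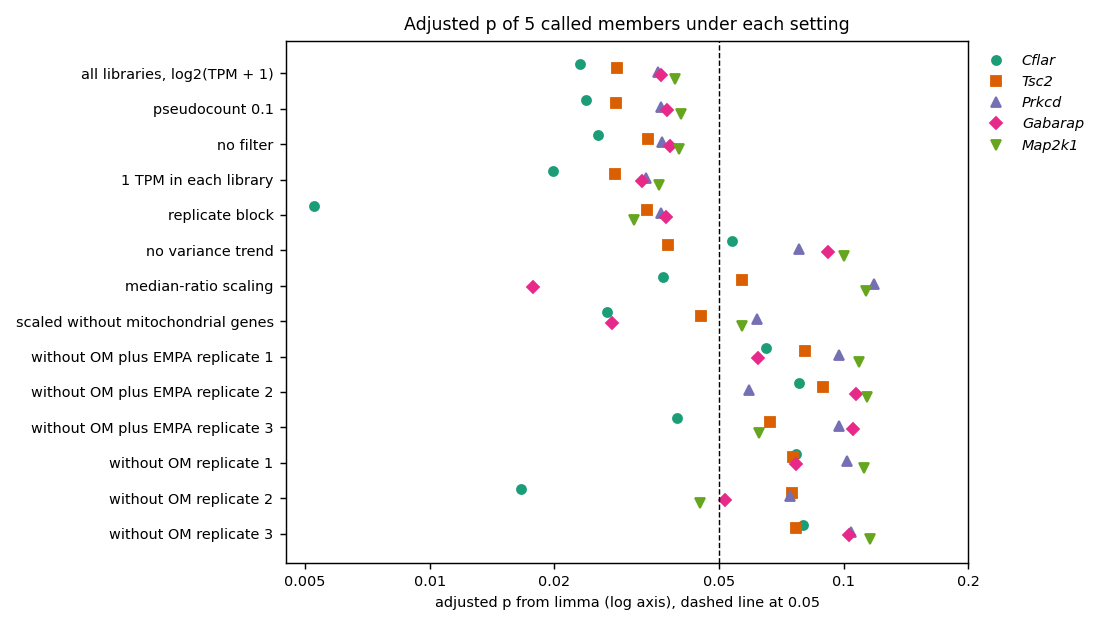
Adjusted p from limma (log axis) of 5 called members under each setting, with a dashed line at 0.05. Points of Tsc2, Prkcd and Gabarap lie right of the line whenever a library is left out. Gabarap is at 0.0178 under median-ratio scaling and at 0.0915 without the variance trend.

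Other genes that act with the pathway were taken from companion lists of transcription factors, cargo receptors, mTORC2 with mTORC1 outputs, and amino acid sensors. Of 11 transcription factors of autophagy genes 1 fell (Tfe3) and 0 rose, 9.09% against 6.92% of all tested genes. In lists this small, 1 or 2 calls are close to that background. Tfe3, a relative of TFEB that drives lysosome and autophagy genes, was at 46.4, 46.0 and 46.2 TPM with empagliflozin and 58.8, 55.6 and 58.9 TPM in OM alone, clearly apart (limma log2 fold change -0.32 ± 0.04, adjusted p = 0.00802). Tfe3 was called with any library left out, at an adjusted p of 0.0151 to 0.0382 from limma. Tfeb was at 3.98 ± 0.19 against 4.29 ± 0.44 TPM (log2 fold change -0.08, 95% interval -0.32 to 0.15), and Foxo3 at 38.8 ± 2.26 against 42.5 ± 0.78 TPM (log2 fold change -0.13, adjusted p = 0.199 from limma).

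Of 16 cargo receptors 1 fell and 0 rose, 6.25% against the background of 6.92%. It was Nbr1, which carries ubiquitinated cargo, at 123, 114 and 125 against 143, 134 and 147 TPM (limma log2 fold change -0.23 ± 0.05, adjusted p = 0.0460), and it was called in 1 of the 6 fits with a library left out, the one without OM replicate 2. The Nbr1 call was lost under median-ratio scaling, at a log2 fold change of -0.17 (adjusted p = 0.0997 from limma), and without mitochondrially encoded genes (adjusted p = 0.0665 from limma). Of 16 transcripts of mTORC2 and of mTORC1 outputs 2 fell and 0 rose, 12.5% against the background of 6.92%. Sgk1, a kinase activated by mTORC2, was at 22.4, 22.3 and 24.99 against 36.8, 29.1 and 32.8 TPM (limma log2 fold change -0.48 ± 0.09, adjusted p = 0.0232). Among those fits Sgk1 was called in 2, which lacked OM replicate 2 or OM plus EMPA replicate 3, with adjusted p from limma of 0.0166 to 0.0826 over the 6. Eif4e, the cap-binding protein that mTORC1 frees for translation, was at 132 ± 2.03 against 147 ± 2.92 TPM (limma log2 fold change -0.16 ± 0.04, adjusted p = 0.0492), and was called in 0 of those fits. The Eif4e call was also lost under median-ratio scaling, at a log2 fold change of -0.10 (adjusted p = 0.193 from limma), and when scaled without mitochondrially encoded genes, at -0.13 (adjusted p = 0.094 from limma). Of 22 transcripts of amino acid sensing upstream of mTORC1 limma called 0, and 2 had an unadjusted p under 0.05 (9.09%, background 24.1%). Cd68, a lysosomal glycoprotein of macrophages and the one leukocyte marker listed, fell with these genes (limma log2 fold change -0.83 ± 0.18, adjusted p = 0.0378), and was called in 2 of the 6 fits with a library left out, and its part in the results was not tested.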

How the data were processed

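RNA-seq values of 6 VSMC libraries were used, 3 per group. The deposited table holds TPM from the authors for 13526 genes. In the submitters' processing notes the tools are DESeq2, RSEM, HISAT2 2.0.5 and fastp, with no role stated, and no source used here names a genome build. TPM keep no record of depth, and a gene that rises lowers the TPM of the others. The authors' own fold changes, p-values and adjusted p-values in the table, and a second table of genes selected by them, were not used. For 0 columns was the sample unknown.

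The fit was limma with the group as the only term and variances shrunk towards a trend over expression (3.8 prior and 4 residual degrees of freedom), on all genes whose mean reached 1 TPM, with Benjamini-Hochberg adjustment over all of them. The members and gene lists were chosen with earlier results of these data known. Roles of 10 members were set from the names in the table. Named genes were the called members, 17 core members, the highest and lowest in level, and the called companion genes, with Tfeb, Tfe3 and Foxo3. Other members were named after their values were seen. Values of 3 members are not reported here by name. Promoters came from RefSeq (GRCr8). The fit was also run on simulated data with independent noise and no shift in scaling between libraries. That run says nothing on how the calls depend on scaling. Fits ran in limma 3.58.1 (R 4.3.3). Python 3.11.15 served for tables (numpy 2.4.6, pandas 2.3.3), exact tests (scipy 1.17.1) and plots (matplotlib 3.10.9). Alternatives were another pseudocount (0.1), other filters, scalings and thresholds, no variance trend, the replicate number as a block, and each library left out. Median-ratio scaling combined with a left-out library was chosen after seeing the data.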

Additional observations from a re-analysis of the deposited data

How the results depend on the processing

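Members called higher and lower (1 and 5), all genes called higher and lower (259 and 611), and role lists with a called member (5) moved as follows. Without the variance trend they were 0 and 1, 154 and 366, and 1. Under median-ratio scaling 1 member was lower, all genes were 390 and 384, and 2 lists held a call. Scaled without mitochondrially encoded genes, 2 members were lower, all genes were 317 and 483, and 3 lists held a call. At an adjusted p of 0.1 they were 2 and 9, and 460 and 1090 (12.3% of all genes), and at 0.01 they were 0 and 0, 35 and 159, and 0. With each library left out they were 0 and 0 to 3, 80 to 216 and 245 to 438, and 0 to 3. A left-out library reduces the samples, and the other causes were not tested. The median log2 fold change of the members was 0.00011 under median-ratio scaling, -0.027 without mitochondrially encoded genes and -0.066 to -0.043 with a library left out. With median-ratio scaling and a library left out, 0 to 1 members were higher and 0 to 2 lower, and counts over all genes are not given for these fits. A pseudocount of 0.1 and both other filters kept these counts within 1.5 times.

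With the replicate number as a block, 2 members were higher and 8 lower (449 and 951 of all genes). The 6 called members were all among these 10. The labels do not say what a number shares. Deviations of same-numbered samples correlated at 0.098, 0.162 and 0.058, so the pairing was not established, though each sample correlated best with its own number.

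Some uncalled log2 fold changes near 0 changed sign. Under median-ratio scaling they were 0.0075 for Pik3c3, 0.034 for Atg5, 0.048 for Map1lc3b, 0.053 for Rab1a and 0.029 for Vmp1. Scaled without mitochondrially encoded genes they were 0.0077 for Atg5, 0.021 for Map1lc3b, 0.026 for Rab1a and 0.0016 for Vmp1. With a pseudocount of 0.1 Dapk1 was at -5.1e-05. With a library left out the ranges were -0.092 to 0.00039 for Map1lc3a, -0.063 to 0.068 for Dapk1, -0.059 to 0.033 for Atg5, -0.052 to 0.025 for Map1lc3b, -0.025 to 0.024 for Rab1a and -0.0012 to 0.068 for Irs1. TPM record no depth, so the counting error of low members such as Dapk1 is unknown.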

Other observations

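Within several small families the share of a paralog, or the summed level, differed between the groups without overlap, although no gene of these families passed the test alone. Wipi1, a phosphoinositide-binding protein of early autophagosomal membranes, made up 67.7%, 70.8% and 70.2% of the summed TPM of Wipi1 and Wipi2 with empagliflozin and 63.0%, 67.2% and 65.8% in the OM group. The sum itself stayed between 145.9 and 148.5 TPM in all 6 libraries. Prkaca made up 56.3%, 54.7% and 55.8% of the summed TPM of the protein kinase A catalytic genes with empagliflozin and 52.3%, 52.6% and 48.5% without. The S6 kinase gene Rps6kb1 made up 60.6 ± 2.83% against 57.1 ± 1.11% of its pair (SD, n = 3 each). The summed TPM of the catalytic subunits of protein phosphatase PP2A was 261 to 264 with empagliflozin and 270 to 277 in the OM group. Unlike a share, such a sum depends on the scaling of the libraries, under which the median log2 fold change of all genes was -0.05, and of the 15 family sums 5 were lower, 1 was higher and 9 overlapped. Each of these shares and the PP2A sum gave p = 0.1 in a two-sided exact permutation test, the smallest that 3 against 3 allows, among 65 such values from 15 families chosen after the values were seen, and none passed adjustment over them.

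The 110 members were spread over 21 chromosomes as the authors' table gives them. Chromosome 10 held 13 of them (11.8%, against 8.47% of all tested genes), among them Gabarap, Tsc2, Becn1, Ulk2, Mlst8 and Rptor.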
